A study of Drosophila melanogaster with 12 samples.

Results

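The passage from the feeding mid-L3 stage, the middle of the last larval instar, to the wandering L3 stage was described here for Drosophila melanogaster larvae on high sugar food. The members were the 6 arrays of larvae that were on 1 M sucrose at harvest, out of 12 arrays in the series. They comprised 3 arrays of wandering larvae reared on high sugar food and 3 arrays of mid-L3 larvae fed high sugar food for 12 hours. All larvae were whole males of the wild-type strain Canton-S kept at 25C on Bloomington Semi-Defined Food, in which sucrose replaced glucose, at 1 M in high sugar food and 0.15 M in control food. The wandering larvae had been on 1 M sucrose since they hatched, had stopped feeding and had not yet pupariated. The mid-L3 larvae had eaten 0.15 M sucrose since they hatched, were moved to 1 M sucrose early in the last instar and were still feeding. The other 6 arrays, 3 of wandering larvae and 3 of mid-L3 larvae on control food throughout, served only to ask whether the stage change differed between foods. The labels call the arrays of a group biological replicates. Stage, age and time on the diet differ together between the high sugar groups and cannot be told apart.

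As background, a larva of the last instar first feeds and grows, with its fat body storing fat, glycogen and protein. Pulses of the steroid hormone ecdysone then end feeding, and the larva empties its gut and leaves the food to find a place to pupariate. Ecdysone acts through a receptor of the proteins EcR and Usp, which switches on early transcription factor genes such as broad and then tissue programmes. The salivary glands make the glue that fixes the puparium, the fat body takes storage proteins back up from the haemolymph, and the larval midgut and fat body later break down. The animal then lives on its stores until it emerges as an adult. A diet of concentrated sucrose is used in flies as a model of sugar overload.

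Arrays of 1 group ranked the tested genes alike, with Spearman's rho between 0.964 and 0.987 among wandering larvae and between 0.984 and 0.991 among mid-L3 larvae, and between 0.573 and 0.631 across the stages. The median deposited intensity of an array was 81.8 to 83.8 in wandering and 65.7 to 65.9 in mid-L3 larvae. Replicates varied more among wandering larvae, with a median SD per gene of 0.163 (log2), than among mid-L3 larvae, with 0.0958. The second mid-L3 array stood apart in salivary gland genes, and the second wandering array in some gut, fat body and cytochrome P450 genes. Where leaving out one of these arrays moved the change of a gene named below by over 1.5-fold, the value without it is given.

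Most of the transcriptome differed between the stages. Of 8387 genes tested, 6644 (79.2%) were called at an adjusted p below 0.05, of which 3229 (38.5% of those tested) were higher and 3415 (40.7%) lower in wandering larvae. Changes of at least 2-fold were called for 1537 higher (18.3%) and 1523 lower (18.2%) genes, and changes of at least 16-fold for 48 higher and 78 lower genes. The test was limma's, on log2(intensity + 22.3) after quantile normalization of all 12 arrays, with Benjamini-Hochberg adjustment over all tested genes. Changes given below are log2 differences on that scale, wandering minus mid-L3, which understate the change of dim genes. Values given per array are the deposited intensities of replicates 1, 2 and 3, and a probe set's intensity is not compared with that of another. The balance of calls moved with the scaling: it was 3834 higher and 2689 lower on values as deposited, and 2831 higher and 3824 lower with each array centred on its median. The median change over all genes was -0.04 on the log2 scale here, 0.16 as deposited and -0.17 when centred, and the direction of small changes depended on the scaling. Of the called genes, 109 changed sign on values as deposited and 165 with arrays centred, with changes of up to 0.33 and 0.68 in size. Every list below is therefore read against a background in which 38.5% of genes were higher and 40.7% lower. On normalized values the high sugar arrays of the stages did not overlap in 6760 of the 8387 genes (80.6%), so such separation was common. In whole larvae, fewer cells of a type and less RNA per cell cannot be told apart.

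The largest increases were of salivary gland glue genes, whose products fix the puparium to its substrate. All 7 Sgs genes tested rose, by a median of 6.75 on the log2 scale. The intensity of Sgs4 was 10030, 10841 and 10235 in wandering larvae, against 22.1, 31.3 and 39.8 in mid-L3 larvae. Sgs3 had intensities of 10929, 11362 and 10593 in wandering larvae, against 8.39, 384 and 2.18 in mid-L3 larvae. The groups were far apart for both genes, but mid-L3 array 2 held far more Sgs3 signal than the other mid-L3 arrays. The log2 change of Sgs3 was 7.38 (SE 0.80, adjusted p = 2.0e-06) with that array and 8.71 without it, and 6.78 and 6.63 without mid-L3 array 1 and array 3. The same array was the highest of the mid-L3 arrays for Sgs8, which had 9825, 10093 and 10344 in wandering larvae, against 39.6, 679 and 32.4 in mid-L3 larvae. It was also the highest of them for Sgs5, which had 7653, 7300 and 7503 in wandering larvae, against 44.5, 357 and 36.2 in mid-L3 larvae. The change of Sgs8 was 6.26 with it, 7.46 without it and 5.61 without mid-L3 array 3, and that of Sgs5 was 6.09 with it and 6.98 without it. Sgs1 and Sgs5bis rose by 6.89 and 6.75, and Sgs5bis by 7.58 without that array. Without mid-L3 array 2 the median over the 7 Sgs genes was 7.46, and all still rose.

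The new glue genes, small genes that are also expressed in the larval salivary gland, went the other way. All 3 that were tested fell. The intensity of ng1 was 190, 29.1 and 282 in wandering larvae, against 6233, 5035 and 5411 in mid-L3 larvae, and wandering array 2 was the lowest. Its change was -5.17 (SE 0.43), and -4.46 without that array. ng2 and ng3 changed by -2.71 and -1.60. The prolyl hydroxylase genes PH4alphaSG1 and PH4alphaSG2, named for the salivary gland, also fell, with changes of -1.74 and -2.35 (log2). The Eig71E genes are ecdysone-induced genes of the late larval salivary gland. Of 11, 9 were on the array and 4 passed the filter on mean intensity, and all 4 rose. A gene that is dim in mid-L3 larvae can pass that filter through its wandering values, so the filter shapes this count. Eig71Ee had 12810, 13828 and 12477 in wandering larvae, against 153, 1303 and 139 in mid-L3 larvae, where mid-L3 array 2 was again the highest of its group, and it changed by 5.20 with that array and 6.13 without it. Eig71Eg had 372, 384 and 449 in wandering larvae, against 3.29, 4.38 and 4.54 in mid-L3 larvae, with no such outlying array, and a log2 change of 3.85 with SE 0.21 and adjusted p = 3.2e-09.

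**Figure D1:**
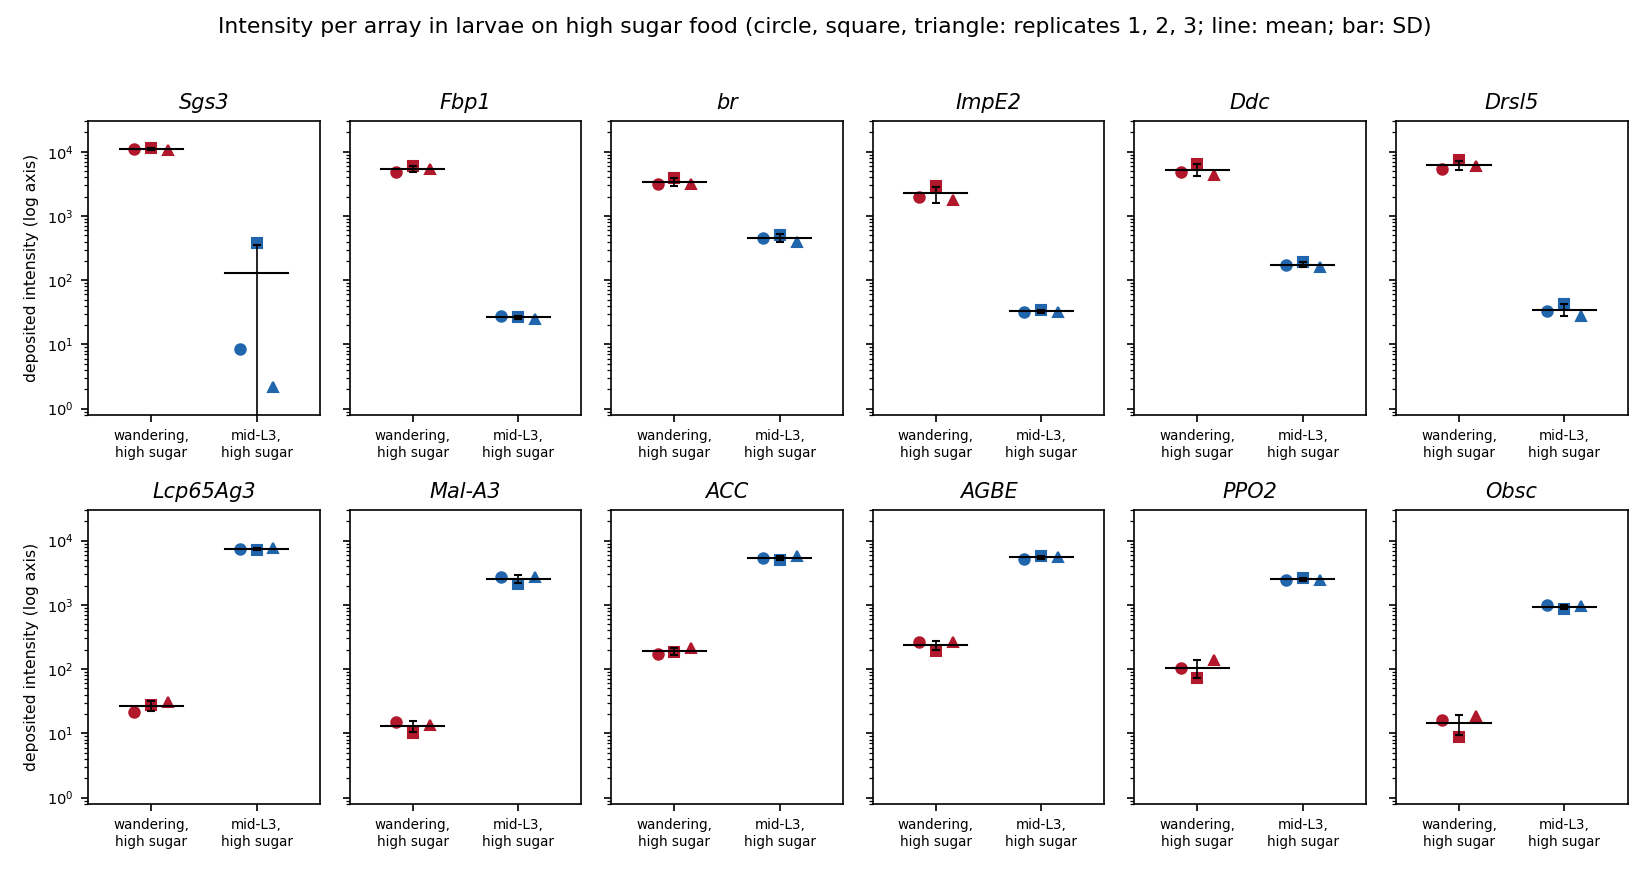
Deposited intensity (log axis) of 12 genes on each array of high sugar larvae, wandering at the left and mid-L3 at the right of each panel; symbols stand for replicates 1 to 3, lines for means and bars for SD, which for mid-L3 Sgs3 runs below the axis. The top row shows genes higher and the bottom row genes lower in wandering larvae, with no overlap of the groups in any panel and with mid-L3 array 2 apart from the other 2 mid-L3 arrays for Sgs3.

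Genes of the ecdysone response were mostly higher in wandering larvae. Of 16 tested, 13 rose, 8 of them at least 2-fold, and 2 fell. Both receptor genes were called: EcR changed by 1.16 (SE 0.16) and usp by -0.58 (SE 0.12) on the log2 scale, so the partners moved in opposite directions. Transcripts of br, the early gene broad, stood at 3157, 3968 and 3117 in wandering larvae, against 459, 511 and 387 in mid-L3 larvae. That is a log2 change of 2.86 with SE 0.14 and adjusted p = 8.2e-10, with no overlap of the groups. Of the other br probe sets, 3 changed by 2.77, 1.93 and 3.09 and 1 by -0.34. Among other targets, the nuclear receptor gene Eip78C changed by 3.58 and E23, which encodes an ecdysone-induced membrane transporter, by 3.78. ImpE1, ImpE2 and ImpE3, first found as genes that ecdysone induces in imaginal discs, rose by 3.03, 5.37 and 3.59. The other ImpE1 probe sets changed by 0.73, -0.40 and 0.23, so that increase rests on 1 probe set. ImpE2 had 2005, 2947 and 1773 in wandering larvae, against 32.1, 34 and 31.7 in mid-L3 larvae, so it lay close to the bottom of the scale in every mid-L3 array. The nuclear receptor gene ftz-f1, which follows the ecdysone pulse in prepupae, was lower, at 84.3, 51.3 and 137 in wandering larvae, against 253, 275 and 274 in mid-L3 larvae. Hr39, another nuclear receptor gene, rose by 0.45 by the probe set used, a call lost when arrays were centred on their medians. Its other probe sets changed by 0.88, 1.47 and 0.19, untested.

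Enzymes that make and remove the hormone changed in both directions. Of 8 tested, 5 rose and 3 fell. The synthesis gene spok, expressed in the larval prothoracic gland, rose by 1.37, and shd, whose product turns ecdysone into its active form, by 0.82, with 0.13 in its other probe set. The synthesis gene dib fell by 0.96. Cyp18a1, whose product inactivates the active hormone, had 202, 277 and 255 in wandering larvae, against 773, 671 and 730 in mid-L3 larvae, a log2 change of -1.72 with SE 0.16 and adjusted p = 4.0e-07. Juvenile hormone is the second developmental hormone of insects and opposes metamorphosis. The genes of its esterase Jhe and its epoxide hydrolase Jheh2 changed by -1.70 and -0.77, the inducible JhI-26 by -1.38, and the hormone's target Kr-h1 by 0.62. Eip74EF, Eip75B, Hr3, Hr4, phm and jhamt were not among the genes tested. Hr4 was on the array but was left out by the filter on mean intensity. Its probe set of highest mean changed by 2.81 and the others by 0.31 and -0.44, untested.

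The fat body gene Fbp1, whose product is the receptor that takes storage proteins back into the fat body, was among the largest increases. Its intensity was 4921, 6037 and 5391 in wandering larvae, against 28, 26.7 and 24.8 in mid-L3 larvae. The wandering arrays were far above the mid-L3 arrays, and the log2 change was 6.99 (SE 0.12, adjusted p = 1.4e-13). Fbp2, a fat body protein of the alcohol dehydrogenase family, rose by 2.03. Lsp2, a storage protein that Fbp1 helps take up, had 13069, 13327 and 12638 in wandering larvae, against 11405, 13029 and 11193 in mid-L3 larvae. Those groups overlapped. Its small change of 0.20 was called, yet turned to -0.20 when arrays were centred on their medians. Gbp1, the gene of a growth-blocking peptide from the fat body, rose by 2.50. The lipid transfer particle gene Apoltp fell by 1.97. Of the 8 fat body markers, 4 rose and 3 fell. Their summed intensity was 46182 to 47525 in wandering and 43351 to 49681 in mid-L3 larvae, so these ranges overlapped, and the brightest probe sets, such as that of Lsp2, carry most weight in it.

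Genes of the cuticle held the largest decreases. Of 106 cuticle protein genes on the array, 50 passed the filter on mean intensity and were tested. Of these 50, 40 fell, 36 of them at least 2-fold, and 6 rose. A gene that is dim in wandering larvae can pass that filter through its mid-L3 values, so the filter shapes these counts. Cpr47Eg had 13.6, 20.5 and 19.8 in wandering larvae, against 8158, 7691 and 8614 in mid-L3 larvae, and its change of -7.50 was the largest decrease of all tested genes. Lcp65Ag3, a larval cuticle protein, had 21.8, 28 and 30.9 in wandering larvae, against 7478, 7158 and 7630 in mid-L3 larvae. Lcp65Ae, Cpr67Fa1, Cpr67Fa2 and Cpr47Ec changed by between -6.33 and -6.09. Near-identical cuticle genes such as Cpr67Fa1 and Cpr67Fa2 can share probes, so their values may not be separate. Enzymes of chitin, the cuticle's main polysaccharide, followed: 13 of 24 fell and 6 rose. The chitin synthase gene kkv changed by -1.52, mmy, which supplies its substrate, by -1.79, and the chitin deacetylase genes serp and verm by -1.62 and -2.90. The chitinase gene Cht10 rose, with 4904, 4925 and 4917 in wandering larvae, against 730, 900 and 755 in mid-L3 larvae. The chitinase gene Cht9 fell by 4.22.

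Genes for hardening and darkening the cuticle split. Of 16, 7 rose and 8 fell, against 38.5% and 40.7% over all tested genes. Ddc, the dopa decarboxylase that makes dopamine for cuticle tanning, had 4871, 6500 and 4356 in wandering larvae, against 174, 190 and 162 in mid-L3 larvae, a log2 change of 4.73 with SE 0.14 and adjusted p = 1.6e-11. The melanin gene yellow-f rose to 1273, 1422 and 1410 in wandering larvae, against 24.3, 39.6 and 27.9 in mid-L3 larvae. Pu, which encodes the enzyme that starts synthesis of the cofactor for dopa production, rose by 2.79. Against these, the prophenoloxidase genes of crystal cells fell: PPO2 had 106, 72.2 and 138 in wandering larvae, against 2449, 2669 and 2412 in mid-L3 larvae, and PPO1 changed by -3.92. In Ddc and PPO2 the stages were apart on every array, in opposite directions.

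PPO1 and PPO2 were also on the list of 12 blood cell markers, of which 5 rose and 6 fell, against 38.5% and 40.7% over all tested genes. The gene of the phagocytic receptor eater rose by 1.80, crq, a scavenger receptor gene, by 1.22, and He, a blood cell surface gene, by 1.07. The neuropeptide-like precursor gene Nplp2 had 679, 258 and 1001 in wandering larvae, against 13447, 13158 and 13799 in mid-L3 larvae. It was lowest in wandering array 2, and its change was -4.60 with that array and -4.05 without it. The summed intensity of the list was 14068 to 14949 in wandering and 29628 to 31639 in mid-L3 larvae. Most of that fall is the fall of the bright probe set of Nplp2, so the sum does not describe the list as a whole.

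Muscle genes were lower nearly throughout. Of 13 markers tested, 12 fell and none rose, and the median over the list was -1.96. Obsc, the gene of the giant sarcomere protein obscurin, had 16.1, 8.66 and 18.5 in wandering larvae, against 984, 867 and 952 in mid-L3 larvae. All 3 wandering arrays were below the constant added to each intensity. The change was -4.78 in this probe set and -1.16 in a second one. The titin relative sls changed by -3.34, Prm (paramyosin) by -2.70, Tm2 (tropomyosin) by -2.57, Zasp52 of the Z-disc by -1.96 and Act87E, a muscle actin gene, by -1.22. The summed signal of the list was 19558 to 26596 in wandering and 76337 to 77763 in mid-L3 larvae. The heart gene prc, which encodes a collagen-like matrix protein, had 13.3, 13.1 and 9.16 in wandering larvae, against 1935, 1219 and 1855 in mid-L3 larvae.

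Genes of digestion fell in most classes. Of 9 maltase genes, whose products split sugars in the gut, 7 fell and 2 rose. Mal-A3 had 15.3, 10.3 and 13.5 in wandering larvae, against 2746, 2139 and 2746 in mid-L3 larvae. Mal-A4 had 182, 128 and 178 in wandering larvae, against 1981, 2121 and 1872 in mid-L3 larvae. Both lay apart on all arrays, with log2 changes of -6.10 (SE 0.38) and -3.58 (SE 0.36). tobi, a glycosidase gene of gut and fat body that responds to insulin-like peptides in flies, had 146, 94.1 and 165 in wandering larvae, against 2332, 1640 and 2354 in mid-L3 larvae. Amyrel, an amylase relative, had 93.3, 122 and 89.1 in wandering larvae, against 560, 548 and 614 in mid-L3 larvae. For all 4 of these genes the highest wandering array lay below the lowest mid-L3 array. Stages were apart, in either direction, in 80.6% of all tested genes. The trypsin genes fell in 9 of 11 cases, led by lambdaTry at -4.54 and kappaTry at -3.70. alphaTry rose, with 10013, 9583 and 7986 in wandering larvae, against 5908, 6099 and 6303 in mid-L3 larvae. Of the Jonah peptidases, 9 of 13 fell and none rose. Jon99Ci had 123, 90.6 and 122 in wandering larvae, against 2213, 2673 and 1996 in mid-L3 larvae, and Jon44E changed by -3.92. Trypsin and Jonah genes lie in families of close copies, so probes may not separate every member.

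Among 10 lipase genes, 7 fell and 1 rose. Lip3 had 48.3, 42.3 and 23.8 in wandering larvae, against 284, 166 and 222 in mid-L3 larvae. CG6271 had 26.4, 16.5 and 21.8 in wandering larvae, against 220, 123 and 95.7 in mid-L3 larvae. Both were apart on all arrays. mag, the gut lipase magro, changed by -0.22, a call lost with estimated array weights. CG2772 was the one lipase gene to rise, by 2.19. Not all gut genes fell: the lysozyme gene LysX had 1719, 1346 and 1740 in wandering larvae, against 26.4, 17.9 and 14.4 in mid-L3 larvae, and the mucin-related Mur29B changed by 2.45. Of the 9 midgut markers, 7 fell and 1 rose, with a summed signal of 25644 to 31195 in wandering and 44570 to 45800 in mid-L3 larvae. The acyl-CoA binding protein gene Acbp4 showed an array apart, with 286, 36.3 and 522 in wandering larvae, against 5623, 5180 and 5281 in mid-L3 larvae. Its change was -4.63 with all arrays, -3.74 without wandering array 2 and -5.27 without wandering array 3.

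Enzymes of sugar breakdown fell as a whole list. All 11 glycolysis genes tested were lower in wandering larvae, with a median of -1.87, against -0.04 over all genes. Pfk, the committed step, had 283, 302 and 274 in wandering larvae, against 3007, 2859 and 2791 in mid-L3 larvae. Gpdh1, which passes glycolytic carbon to glycerol phosphate, had 1530, 773 and 1952 in wandering larvae, against 11457, 11423 and 11012 in mid-L3 larvae. The groups did not overlap in either gene, wandering array 2 being the lowest for Gpdh1, and the changes were -3.33 (SE 0.11) and -3.02 (SE 0.25). Without that array the change of Gpdh1 was -2.63. Hex-A and Hex-C, both hexokinase genes, changed by -1.44 and -2.27, Pgi by -2.21 and Pgk by -1.99. All 4 glycogen genes tested fell too. The branching enzyme gene AGBE had 261, 193 and 260 in wandering larvae, against 5221, 5693 and 5578 in mid-L3 larvae. The phosphorylase gene Glyp had 792, 524 and 783 in wandering larvae, against 8101, 8412 and 8110 in mid-L3 larvae. The synthase gene Glys had 620, 438 and 518 in wandering larvae, against 3317, 3426 and 3482 in mid-L3 larvae. So the genes for making and for breaking glycogen were lower together.

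The genes for making sugar from other sources were divided, with 4 of 8 higher and 4 lower. Tps1, which makes the blood sugar trehalose, had 489, 448 and 487 in wandering larvae, against 2308, 2152 and 2690 in mid-L3 larvae. fbp, a gluconeogenic phosphatase gene, fell by 1.88. Pepck2 rose, with 4447, 4788 and 3797 in wandering larvae, against 543, 841 and 886 in mid-L3 larvae. Its relative Pepck1, the enzyme that commits carbon to sugar synthesis, had 6924, 7472 and 6543 in wandering larvae, against 6076, 8206 and 6208 in mid-L3 larvae. Those groups overlapped, and its change was 0.36 here but -0.29 with arrays centred on their medians. Treh, which splits trehalose, changed by 0.28 (adjusted p = 0.0178), and that call was lost without wandering array 1, mid-L3 array 2 or mid-L3 array 3, where the adjusted p was 0.078, 0.056 and 0.057. Among sugar transporter genes, sut4 rose by 2.95 and nebu by 2.52, while MFS3 fell by 2.98.

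**Figure D2:**
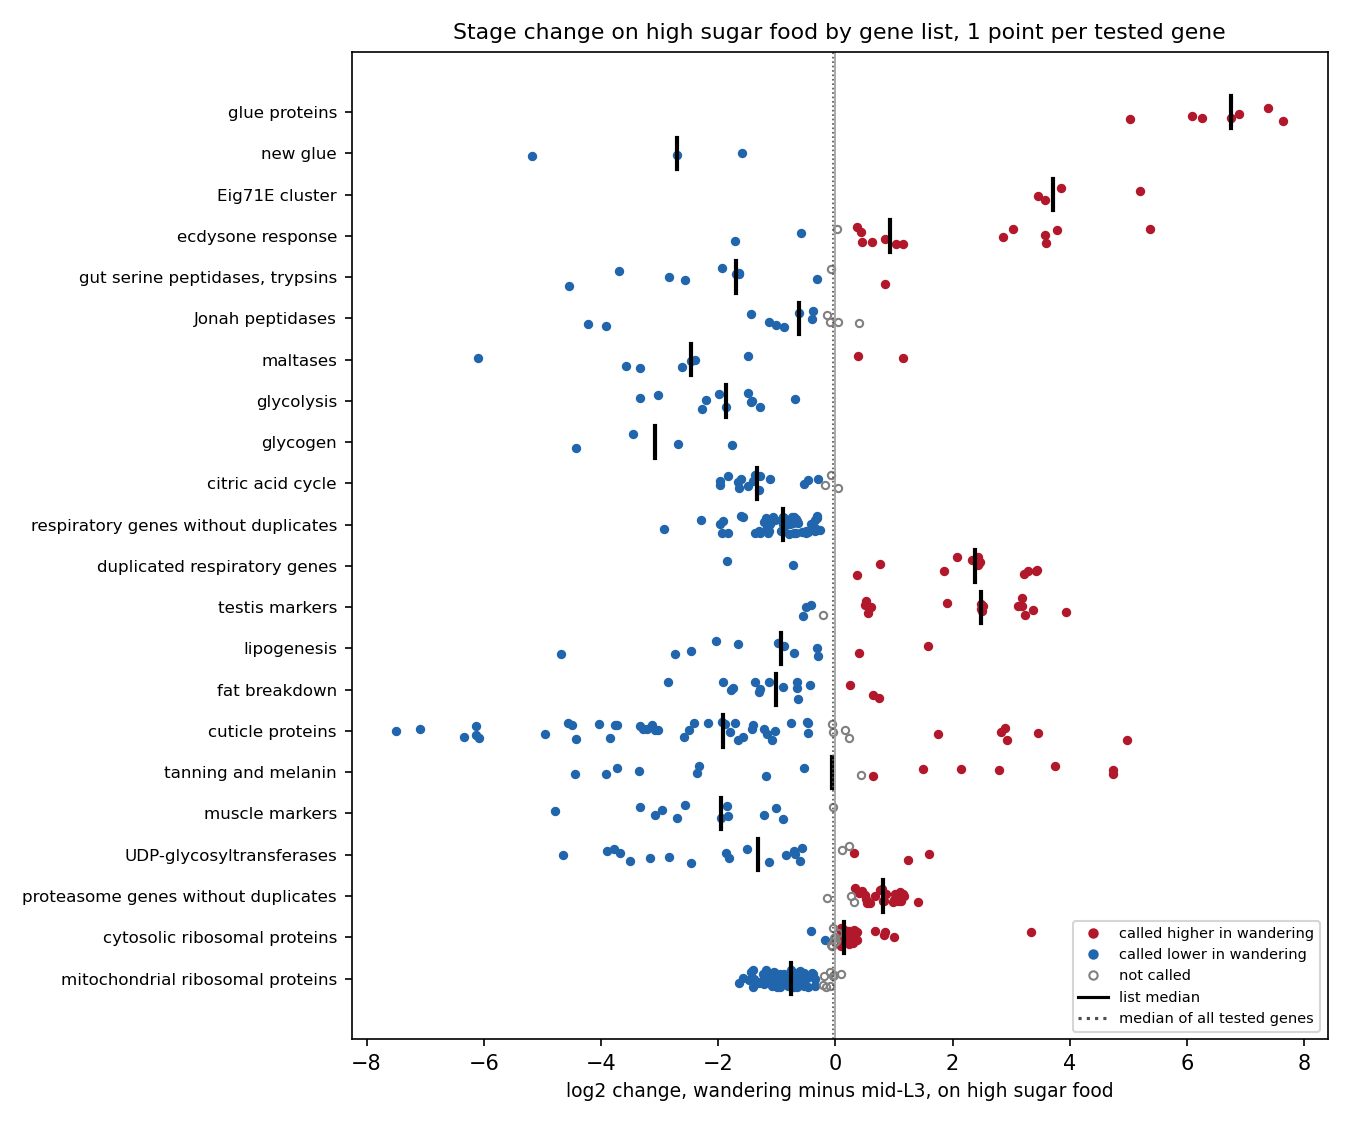
Log2 change on high sugar food, wandering minus mid-L3, of every tested gene of 22 lists; filled points are genes called higher (red) or lower (blue), open points genes not called, black bars the list medians and the dotted line the median of all tested genes at -0.04. Glue genes lie furthest to the right, and the glycogen genes and most maltase, glycolysis and muscle genes lie on the left.

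Mitochondrial genes fell, apart from a set of duplicated genes. Of 18 citric acid cycle genes, 15 fell and none rose. SdhB, a subunit of succinate dehydrogenase, changed by -1.97 and Ogdh, a subunit gene of the oxoglutarate dehydrogenase complex, by -1.49. Of 64 oxidative phosphorylation genes, 52 fell and 12 rose. A split by gene name, made after these values were seen, separated them: all 50 genes with the standard names fell, with a median of -0.90. Of the 14 duplicates, whose symbols end in L or in L and a digit, 12 rose and 2 fell, with a median of 2.38. The pair COX4 and COX4L, subunits of cytochrome c oxidase, illustrates it. COX4 had 5508, 5402 and 5306 in wandering larvae, against 9625, 9750 and 9655 in mid-L3 larvae. COX4L had 1705, 1587 and 2352 in wandering larvae, against 176, 168 and 170 in mid-L3 larvae. RFeSP and ND-51 of the standard genes changed by -2.29 and -1.94, and COX7AL, ATPsynCF6L and COX6CL of the duplicates by 3.44, 3.42 and 3.28. Many duplicated mitochondrial genes of Drosophila are known for expression in the testis.

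Testis genes were higher in the wandering males. Of 19 testis markers, 15 rose and 3 fell, with a median of 2.48. The summed signal was 25480 to 30062 in wandering and 4002 to 4244 in mid-L3 larvae. bam, which ends the divisions of early germ cells, had 656, 427 and 650 in wandering larvae, against 11.7, 16.5 and 14.1 in mid-L3 larvae. betaTub85D, the testis tubulin, had 2434, 3422 and 2685 in wandering larvae, against 476, 509 and 440 in mid-L3 larvae. Mst84Da, Mst84Db and Mst87F, expressed in male germ cells, rose by 3.37, 3.19 and 3.12, and the protamine gene ProtA by 3.24. Testis signal moved with the duplicated mitochondrial genes, and its part in their increase was not tested.

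Lipid synthesis genes fell, with 10 of 12 lower and 2 higher. ACC, the acetyl-CoA carboxylase that commits carbon to fatty acids, had 171, 185 and 213 in wandering larvae, against 5337, 5063 and 5809 in mid-L3 larvae, a log2 change of -4.68 with SE 0.12 and adjusted p = 6.8e-12. FASN1, the fatty acid synthase, had 2602, 1365 and 3381 in wandering larvae, against 13507, 13769 and 14322 in mid-L3 larvae, with wandering array 2 the lowest. Its change was -2.47 with that array and -2.10 without it. sug, a sugar-responsive transcription factor, changed by -2.73, and its upstream sugar sensor Mondo by -0.88. SREBP changed by -0.98 and the desaturase gene Desat1 by -0.71. FASN3, a fatty acid synthase gene of the oenocytes, rose by 1.58.

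For fat storage, 10 of 14 genes fell and 2 rose. The acyltransferase gene Agpat4 changed by -4.01, Seipin, a lipid droplet assembly gene, by -2.94, and the diacylglycerol acyltransferase gene Dgat2 by -1.56. Genes for burning fat fell as well, 13 of 16 against 3 that rose. Acox57D-d, a peroxisomal oxidase gene, changed by -2.85, colt, of the mitochondrial carnitine shuttle, by -1.91, and Hnf4, a nuclear receptor gene for fatty acid breakdown, by -1.30. The lipase gene bmm, which opens fat stores, rose, with 2206, 2033 and 2991 in wandering larvae, against 1244, 2062 and 1301 in mid-L3 larvae. Mid-L3 array 2 lay within the range of the wandering arrays. The change was 0.75 with it and 0.94 without it, and the call was lost when arrays were centred. Of lipid carriers, Npc2d changed by -3.03, and NLaz, a lipocalin gene linked to stress and metabolism, by 2.44.

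Insulin and TOR genes moved both ways, 7 higher and 6 lower of 16, against 38.5% higher and 40.7% lower over all tested genes. The receptor gene InR had 388, 383 and 368 in wandering larvae, against 128, 163 and 152 in mid-L3 larvae. Akt, the kinase below it, rose by 1.03, and the TOR inhibitors Tsc1 and gig fell by 1.23 and 1.08. ImpL2, a secreted binding protein that dampens insulin-like peptides, rose by 1.03. foxo, the transcription factor that insulin signalling holds back, changed by -0.45 with overlapping groups, a call lost on values as deposited. Lst, the gene of limostatin, a hormone that lowers insulin release, had 4351, 3902 and 4363 in wandering larvae, against 518, 619 and 565 in mid-L3 larvae, a log2 change of 2.91 with SE 0.12 and adjusted p = 2.6e-10. AkhR, the receptor gene for the hormone that mobilises fat and sugar, changed by -1.37, and by -0.43 in its second probe set. Thor, Ilp6 and Myc were not among the genes tested.

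Amino acid breakdown genes and purine genes each moved both ways. Of 20 amino acid breakdown genes, 11 fell and 5 rose, with arg (arginase) at -2.37 and Faa, in tyrosine breakdown, at -1.91. Of 14 purine genes, 9 rose and 5 fell. The synthesis genes Gart, Paics and Prat2 rose by 2.34, 2.04 and 1.47. ry, whose product makes urate, had 170, 171 and 133 in wandering larvae, against 53.3, 40.5 and 61.8 in mid-L3 larvae. Adgf-A, the gene of an adenosine deaminase, fell by 1.25.

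The proteasome, which degrades tagged proteins, was higher as a list: 31 of 34 genes rose and none fell. Among the 26 standard genes, 23 rose, by a median of 0.81 (0.27 with centred arrays). Rpn5, a lid subunit, had 5354, 4997 and 4973 in wandering larvae, against 2164, 2333 and 2287 in mid-L3 larvae, and Prosbeta3, a core subunit, changed by 1.08. The 8 duplicates, with T or R after the symbol, all rose, by up to 2.76 for Prosbeta5R1. That group too moved beside the testis markers, whose part in it was not tested. Autophagy genes were split, 7 of 19 higher and 4 lower. Atg7 had 826, 1053 and 824 in wandering larvae, against 158, 182 and 179 in mid-L3 larvae, and the membrane marker Atg8a changed by 0.73, a call lost when arrays were centred. Atg8b, its close relative, rose by 2.81. Lysosome and proton pump genes had no common direction, 13 of 33 higher and 13 lower, against 38.5% and 40.7% over all tested genes. Of the cathepsins among them, CtsL1 rose by 0.98, cathD by 1.22, and CtsL3, with 1130, 1344 and 1049 in wandering larvae, against 10.4, 6.55 and 3.02 in mid-L3 larvae, by 5.38.

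Among 9 cell death genes, 5 rose and 3 fell. The initiator caspase gene Dronc had 994, 1137 and 1088 in wandering larvae, against 197, 237 and 240 in mid-L3 larvae, a log2 change of 2.00 with SE 0.12 and adjusted p = 7.8e-09. Dark, whose product assembles with Dronc, rose by 1.67 in the probe set used and changed by 0.19 in another. Debcl, of the Bcl-2 family, and Diap2, a gene of an inhibitor of apoptosis, fell by 0.73 and 0.49. Drice, rpr and hid were not among the genes tested.

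Ribosomal proteins of the mitochondria and of the cytosol behaved differently. Of 69 mitochondrial ribosomal protein genes, 61 fell and none rose, with a median of -0.76. mRpL2 had 245, 298 and 229 in wandering larvae, against 770, 672 and 707 in mid-L3 larvae. Of 39 cytosolic ones, 28 rose and 2 fell, but the median of 0.14 became 0.01 as deposited and -0.32 with arrays centred, so the direction of that list is not settled. RpL10Aa, a duplicate, was apart from the rest at 3.34. Genes that build ribosomes were lower in 14 and higher in 4 of 28 cases, with a median of -0.37 that was -0.07 as deposited. Of 22 replication and cell cycle genes, 9 fell and 6 rose. The origin gene Orc1 changed by -0.92, and the mitotic cyclin gene CycB3 by 0.76.

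Detoxification genes were mostly lower. Of 55 cytochrome P450 genes, 36 fell and 8 rose. Cyp6a2 had 92.6, 61.3 and 98.4 in wandering larvae, against 4807, 2488 and 3608 in mid-L3 larvae. Cyp4e3 was the exception with the largest change, at 5045, 2663 and 5418 in wandering larvae, against 72.5, 85.3 and 81.6 in mid-L3 larvae. Its groups were apart, wandering array 2 was the lowest of its group, and the change was 5.38 with that array and 5.72 without it. Of 30 glutathione transferase genes, 17 fell and 4 rose. GstD7 had 14.6, 5.29 and 9.51 in wandering larvae, against 2094, 1378 and 2108 in mid-L3 larvae, and GstE6 and GstD8 changed by -3.85 and -3.63. GstO1 rose by 1.79. The UDP-glycosyltransferases, which attach sugars to foreign compounds, fell in 17 of 22 genes and rose in 3. Ugt37D1 changed by -4.64 and Ugt37B1 by -3.89. Antioxidant genes were divided, 5 of 11 higher and 6 lower. The mitochondrial genes Sod2 and Prx3 fell by 1.37 and 1.00 and Trxr1 by 1.98, while TrxT, of the male germline, rose by 2.31 beside the testis markers, whose part in it was not tested.

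Immune genes showed no common direction. Of 11 antimicrobial peptide and Bomanin genes tested, 2 rose and 2 fell. Drsl5, which encodes a relative of drosomycin, had 5455, 7355 and 5953 in wandering larvae, against 33.4, 42.4 and 27.9 in mid-L3 larvae, a log2 change of 6.90 with SE 0.18 and adjusted p = 5.8e-12. Drs itself had 7754, 7635 and 7406 in wandering larvae, against 1831, 1622 and 3760 in mid-L3 larvae. The groups did not overlap, though mid-L3 array 3 was well above the other mid-L3 arrays, and the change of 1.95 (SE 0.96) was not called, with adjusted p = 0.0778. On control food Drs had 8487, 4872 and 4912 in wandering larvae, against 6538, 129 and 165 in mid-L3 larvae. The call depended on those arrays: the adjusted p was 0.00012 with only the 6 compared arrays and 2.4e-05 without mid-L3 control array 1. The recognition genes PGRP-SB1 and PGRP-LA rose by 3.07 and 1.37, and PGRP-LB, which damps the response, fell by 0.90. Small heat shock genes Hsp27 and Hsp26 rose by 2.92 and 1.77, and the mitochondrial chaperonin gene Hsp60A fell by 1.87. Odorant binding proteins are secreted carriers of small molecules: 10 of 18 tested fell and 4 rose, from Obp83g at -4.62 to Obp83ef at 3.55.

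The remaining tissue markers changed in part. Of 6 tracheal markers 1 rose and 4 fell, and their summed signal was 2380 to 2681 in wandering and 8886 to 9293 in mid-L3 larvae. Those that fell were the chitin genes kkv, serp and verm, already counted above, and uif. The change of uif was -1.03 in the probe set used and -0.32 in another. Of 10 imaginal disc markers 6 rose and 3 fell, with sums of 2793 to 3356 in wandering and 2029 to 2125 in mid-L3 larvae. Probe sets of a disc gene did not always move together. Dll changed by 1.21 in the one used and by 0.9 and -2.25 in others. nub changed by -0.85, against 0.1 and 0.11 in others, and ct by -0.89, against 0.0 and -0.1. Both probe sets of ap were higher, by 0.78 and 0.53. en, which patterns posterior compartments, rose by 1.03, and dpp, a growth factor gene of discs and gut, fell by 0.81. The 8 tubule markers had overlapping sums, 3109 to 3706 in wandering and 3204 to 3735 in mid-L3 larvae. Of 4 neural markers 2 rose and 2 fell. Of 11 salivary gland markers 8 rose and 3 fell, PH4alphaSG1 and PH4alphaSG2 among those that fell. Their summed signal was 55264 to 56129 in wandering and 1500 to 5723 in mid-L3 larvae, the highest mid-L3 value being that of array 2. The bright Sgs probe sets, already described, carry most weight in the wandering sum, so it does not describe the list as a whole.

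The largest changes also held genes without a characterised role. CG34279, CG31698, CG42834, CG11854 and the noncoding lncRNA:CR33948 rose by between 5.90 and 6.53. CG13705, CG10953, CG40198 and CG11350 changed by between -6.68 and -5.64. smp-30, the fly relative of a vertebrate protein that declines with age, had 95.9, 50.9 and 85.6 in wandering larvae, against 4938, 3955 and 4914 in mid-L3 larvae.

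Some genes lay near the bottom of the scale in 1 stage. With all 3 arrays at or below 22.3 in one stage and above 302, the median of tested genes, in the other, 19 genes were low in mid-L3 and 13 low in wandering larvae. Those low in mid-L3 included Sgs1, CtsL3 and the serpin gene Spn43Aa, with Spn43Aa at 1011, 1517 and 989 in wandering larvae, against 17, 13.9 and 3.17 in mid-L3 larvae. CG7906 and CG7924, which have no characterised role, were also of this kind, and CG7906 had 2871, 4155 and 5041 in wandering larvae, against 18.8, 12.9 and 15.3 in mid-L3 larvae. Those low in wandering larvae included Cpr47Eg, Mal-A3, GstD7, prc and Obsc. CG15515, which has no characterised role, had 6.84, 7.82 and 8.67 in wandering larvae, against 3001, 2323 and 2966 in mid-L3 larvae. At a cut of 11.2 the counts were 3 and 2, and at 44.6 they were 117 and 36, so membership depends on the cut.

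The last question was whether the stage change on high sugar food differed from that on control food, between groups that share no arrays. Most genes with a large change moved the same way on both foods. On high sugar food 3060 genes and on control food 3238 genes were called and at least 2-fold changed, of which 2708 changed in the same direction, or 88.5% of the high sugar set and 83.6% of the control set. On control food 6660 genes (79.4%) were called, with 1712 (20.4%) at least 2-fold higher and 1526 (18.2%) at least 2-fold lower. The difference of the stage changes, high sugar minus control, was called for 682 genes (8.13%), 335 above 0 (3.99%) and 347 below 0 (4.14%), and by at least 2-fold for 129 (1.54%) and 114 (1.36%). In 330 of the 682 the change had the same sign on both foods and was smaller on high sugar food, in 191 it had the same sign and was larger, and in 161 the signs were opposite, though both changes were called in only 65 of those. These counts varied with 1 array: the difference was called for 1283 genes without wandering high sugar array 2, for 445 without mid-L3 control array 3 and for 451 without mid-L3 high sugar array 3. As the mid-L3 larvae had had 12 hours of high sugar and the wandering larvae their whole life, a difference can arise in either stage.

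**Figure D3:**
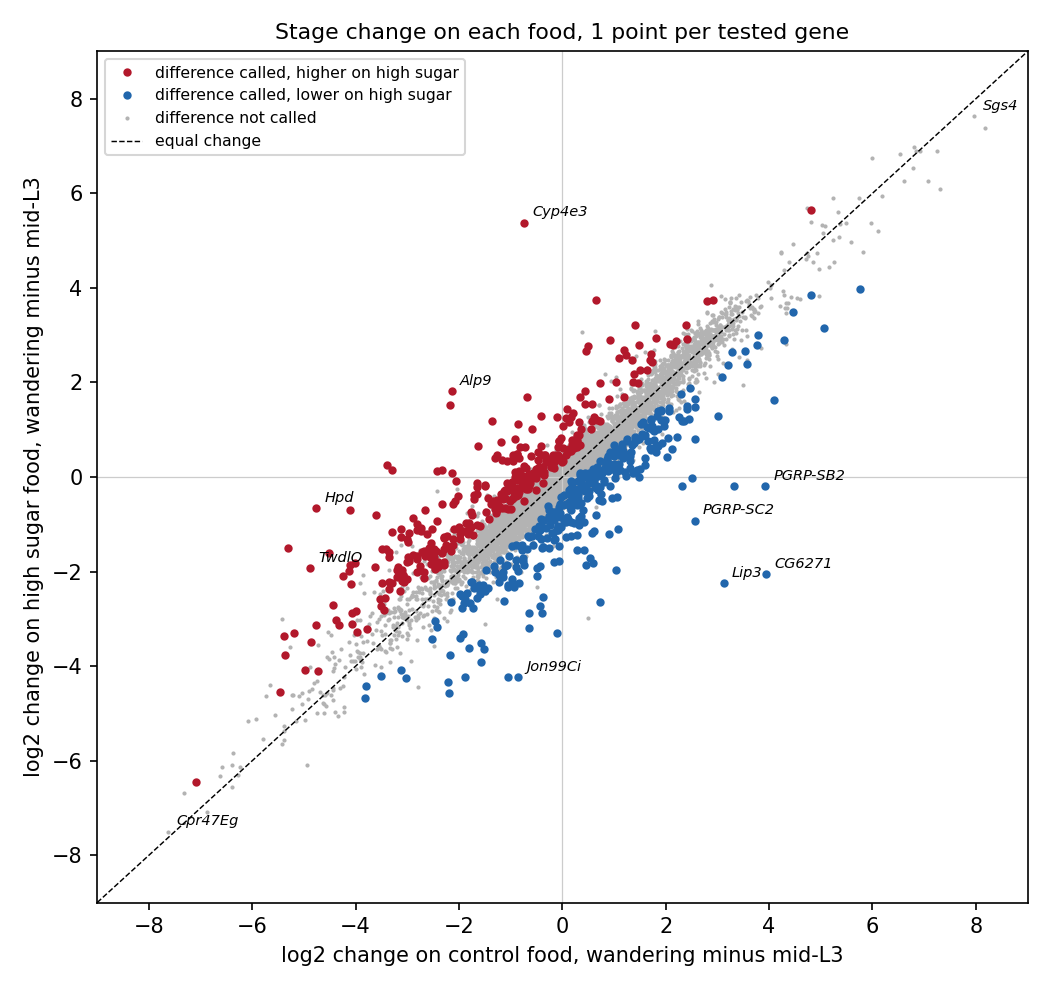
Log2 stage change, wandering minus mid-L3, on high sugar food (vertical axis) against control food (horizontal axis) for each of 8387 tested genes; coloured points are the 682 genes whose difference was called and the dashed line marks equal change. Most genes lie along the line, Cyp4e3 lies far above it, and Lip3, CG6271, PGRP-SB2 and Jon99Ci lie far below it.

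The gene furthest above was Cyp4e3, a cytochrome P450. It changed by 5.38 on high sugar and -0.74 on control food, where it had 43.1, 37.1 and 52 in wandering larvae, against 69.3, 64.7 and 79.4 in mid-L3 larvae. The difference was 6.12 (SE 0.31, adjusted p = 2.6e-07), and only wandering larvae reared on high sugar food were high. Hpd, an enzyme of tyrosine breakdown, showed another form. On high sugar food it had 24.3, 15 and 18.7 in wandering larvae, against 54.7, 33 and 33.9 in mid-L3 larvae, so it was dim in both stages. On control food it had 52.2, 50 and 40.1 in wandering larvae, against 1961, 1689 and 1889 in mid-L3 larvae, so mid-L3 larvae alone were high. The stage changes were -0.66 on high sugar and -4.77 on control food, a difference of 4.11 (SE 0.20, adjusted p = 2.6e-07). On high sugar food Alp9, an alkaline phosphatase gene, had 783, 261 and 457 in wandering larvae, against 96.3, 82.6 and 90.7 in mid-L3 larvae. On control food it had 211, 408 and 175 in wandering larvae, against 1159, 1187 and 892 in mid-L3 larvae, so its stage change was upward on high sugar and downward on control food, with a difference of 3.95 (SE 0.48). The cuticle gene TwdlO changed by -1.93 on high sugar and -4.88 on control food. Amino acid breakdown genes had 8 differences above and 1 below 0 among 20, and P450 genes 12 above and 3 below 0 among 55. Over all tested genes the shares were 3.99% above and 4.14% below 0.

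Digestive and recognition genes led the differences below 0. CG6271, a lipase gene, changed by -2.05 on high sugar and 3.95 on control food, where it had 3830, 4312 and 3232 in wandering larvae, against 463, 117 and 225 in mid-L3 larvae. Lip3 changed by -2.24 on high sugar and 3.12 on control food, where it had 2761, 3013 and 2003 in wandering larvae, against 496, 188 and 202 in mid-L3 larvae. So both lipase genes fell with stage on high sugar food and rose on control food, with differences of -6.00 (SE 0.48) and -5.36 (SE 0.42). On high sugar food PGRP-SC2, the gene of a gut amidase that degrades bacterial peptidoglycan, had 372, 362 and 369 in wandering larvae, against 582, 690 and 528 in mid-L3 larvae. On control food it had 4203, 3443 and 2957 in wandering larvae, against 867, 508 and 580 in mid-L3 larvae. Its stage changes were -0.92 and 2.56, a difference of -3.47 (SE 0.23). Jon99Ci, described above, changed by -0.86 on control food, where it had 1577, 1666 and 952 in wandering larvae, against 2863, 2384 and 2765 in mid-L3 larvae, and Amyrel by -0.37. Of the Jonah genes 7 of 13, and of the lipase genes 5 of 10, had a difference below 0, against a background of 4.14%. The glue, Eig71E and muscle lists, with 7, 4 and 13 tested genes, held no gene whose difference was called. Over all tested genes the share called was 8.13%, so lists this short cannot tell whether they differ from the rest. The hexokinase gene Hex-C had a difference of 1.82.

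**Figure D4:**
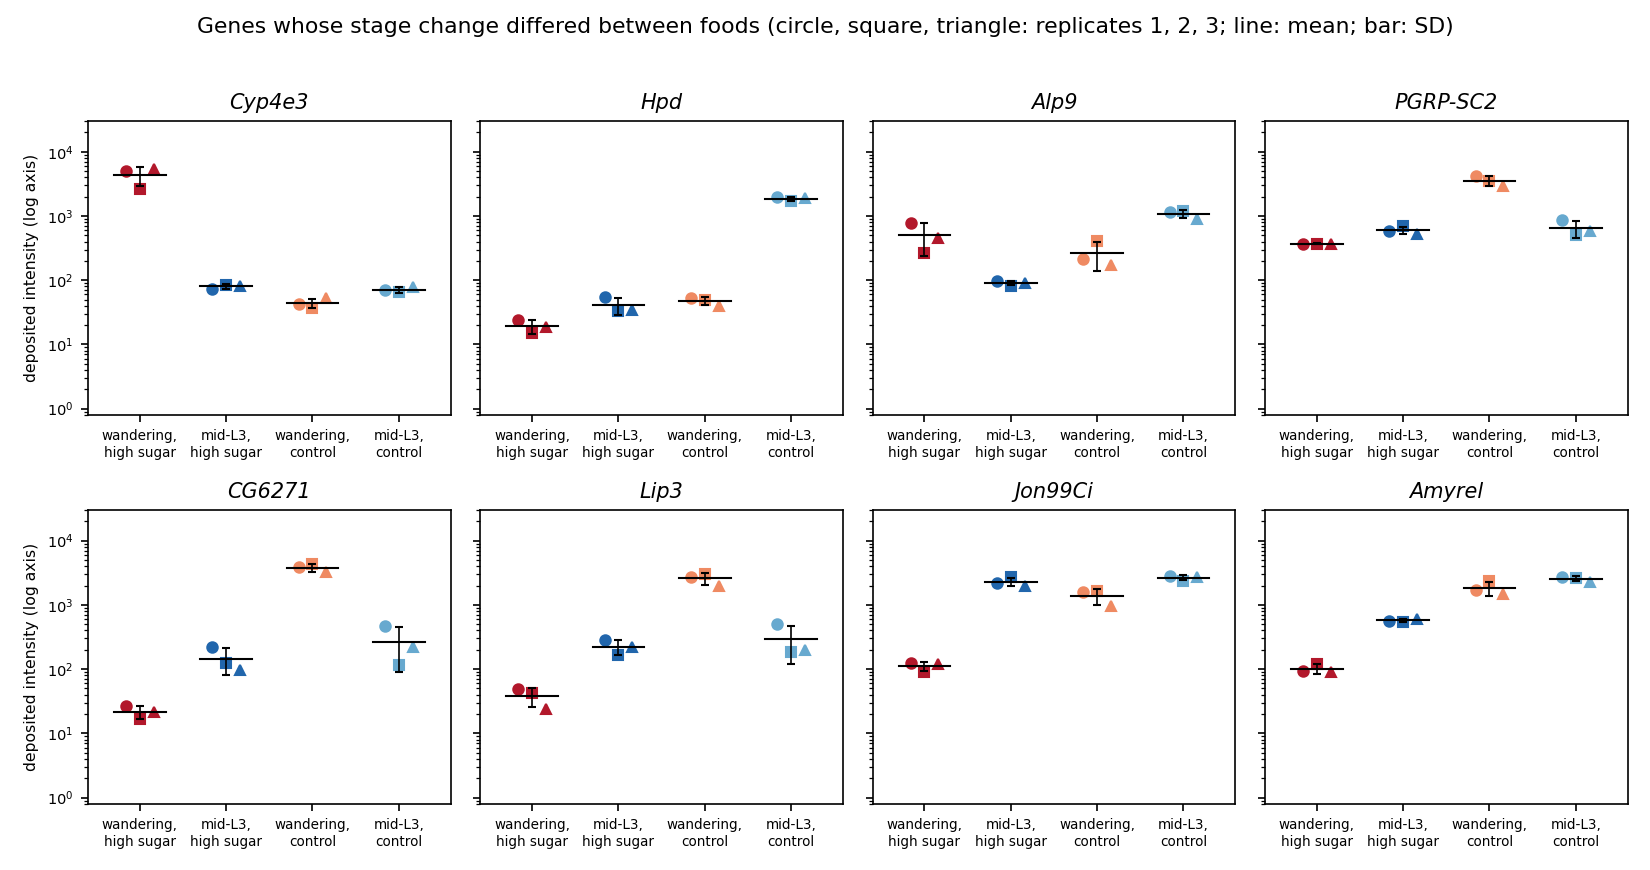
Deposited intensity (log axis) per array of 8 genes whose stage change differed between foods, with the high sugar groups at the left and the control groups at the right, wandering before mid-L3 in each; symbols stand for replicates 1 to 3, lines for means and bars for SD. Cyp4e3 is high in 1 group only, Hpd is high only in mid-L3 control larvae, and CG6271, Lip3, Jon99Ci and Amyrel are lowest in wandering larvae on high sugar food.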

How the data were processed

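RNA of whole male larvae was hybridised to 12 Affymetrix arrays, 3 for each stage and food. The authors deposited linear intensities, 1 for each probe set on each array, as the file headers and values show. How probes were summarised and scaled is not given in the sources used here. Detection calls were not used, and 3 arrays a group set the precision.

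Of 18952 probe sets, 183 controls were left out, 13647 had 1 gene symbol in the platform's table and 402 several, and 4720 were unlisted and stay unnamed. Symbols of 13544 were updated through Entrez identifiers to the Release 6 annotation. For the 13647 probe sets with 1 gene symbol, 22.3 (the 20th percentile of their values) was added to each intensity, log2 was taken, and arrays were quantile normalized. A gene was then read by its probe set with the highest mean deposited intensity, which gave 11982 genes. Genes whose mean lay below the 30th percentile were left out, which left 8387. limma 3.58.1 in R 4.3.3 fitted 4 group means to all 12 arrays (lmFit, eBayes with trend), with Benjamini-Hochberg adjustment and a threshold of 0.05. The script was tested on simulated data. Replicate numbers were checked and did not pair the high sugar arrays, while same-numbered control arrays were more alike than others.

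Named genes were the 15 largest increases and 15 largest decreases called with arrays apart, the 12 largest differences of each sign, for each list at most 6 genes by smallest adjusted p of the stage change and 3 of the difference, 8 genes low in each stage, and a fixed set. Members and lists were chosen with earlier results of these data known. Alternatives changed scaling, constant, filter, probe set rule, arrays and variance model.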

Additional observations from a re-analysis of the deposited data

Results flagged for a closer look

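The test of the difference between the stage change on high sugar food and that on control food flagged the genes below, each past an adjusted p of 0.05 in limma's fit. Values are log2 differences, high sugar minus control. Above 0 lay Cyp4e3 at 6.12, Hpd at 4.11, Alp9 at 3.95, CG13230 at 3.79, CG17362 at 3.69, CG32407 at 3.64, CG34316 at 3.44, CG17134 at 3.40, CG10514 at 3.10, TwdlO at 2.94, CG15533 at 2.91 and Cyt-b5-r at 2.81, with Hex-C at 1.82. Below 0 lay CG6271 at -6.00, Lip3 at -5.36, PGRP-SB2 at -4.11, CG12951 at -3.51, PGRP-SC2 at -3.47, CG5246 at -3.38, Jon99Ci at -3.36, CG9672 at -3.19, CG1774 at -3.16, CG13135 at -3.01, CG4269 at -2.54 and cDIP at -2.53, with Amyrel at -2.17. Without wandering control array 3 the difference of CG13135 was -3.70. A second probe set of CG13135 changed less with stage on high sugar food, by -0.18 against -1.97 in the one used. Groups of 3 arrays were not tested for outlying arrays.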

How the results depend on the processing

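Of the 208 genes described on high sugar food, 199 kept their direction and their side of the threshold under every alternative that tested them. The exceptions were Atg8a, Drs, Hr39, Lsp2, Pepck1, Treh, bmm, foxo and mag. The 26 differences between foods given above also kept theirs. Some alternatives filtered genes out, and those genes could not be checked there. Centring each array on its median turned Lsp2 to -0.20 and Pepck1 to -0.29. With 2-fold as a further condition the stage change was called for 3060 genes on high sugar food (1537 higher, 1523 lower) and 3238 on control food, and the difference between foods for 243 (129 above and 114 below 0). With estimated array weights the difference was called for 2349 genes (1058 above and 1291 below 0), but the estimate of those weights stopped before it converged. Weights estimated gene by gene, an alternative chosen after seeing the data, gave 1798 (828 above and 970 below 0), and the cause was not tested. Leaving out 1 array gave 445 to 1283 genes for the difference, 220 to 580 above and 225 to 703 below 0: 1283 without wandering high sugar array 2, 445 without mid-L3 control array 3, and 451 without mid-L3 high sugar array 3. Leaving out wandering control array 3 gave 221 above 0. As deposited, 58.8% of the genes called on high sugar food were higher, against 48.6% with quantile normalization and 42.5% with arrays centred. The replicate numbers did not pair the high sugar arrays, with correlations of 0.039, 0 and -0.02 between same-numbered and -0.038 to 0.039 between other arrays. On control food the values were 0.184, 0.145 and 0.126 between same-numbered and -0.183 to 0.074 between other arrays. Same-numbered control arrays were thus more alike, and control arrays enter the difference. The replicate block gave 6568 genes called on high sugar food and 575 for the difference. Of 3200 counts of called list members under an alternative, 128 moved by over 1.5 times or were no longer 0. Leaving out mid-L3 array 2 or wandering array 2 left all glue genes higher. Dim probe sets limit what can be said of genes low in 1 stage.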

Other observations

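Some genes not described above also differed between the stages on high sugar food. Of 4 clock genes tested, 2 rose and 1 fell, against 79.2% of all genes called. vri had 434, 490 and 398 in wandering larvae, against 101, 164 and 87.6 in mid-L3 larvae, and cyc changed by 1.76 and cwo by -1.13 on the log2 scale, with -0.20 in a second cwo probe set. The time of day of collection is not in the labels used here. Of 9 genes of the gut lining tested, 3 rose and 4 fell, with a median of 0.11. The chitin-binding genes obst-B and Peritrophin-A were the lowest, at -3.05 and -3.02. The odorant binding protein gene Obp44a had 8802, 8872 and 8645 in wandering larvae, against 4420, 4264 and 4636 in mid-L3 larvae.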
